A study of Mus musculus with 10 samples.

Results

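The 46 genes described here encode the machinery that brings new secretory and membrane proteins into the endoplasmic reticulum (ER) and attaches their N-linked sugars. They were chosen by name: 8 genes of the signal recognition particle and its receptor, 10 of the translocon, 5 of signal peptidase, 8 of oligosaccharyltransferase, 9 of the pathway that builds the dolichol-linked oligosaccharide, and 6 of N-glycan trimming and branching. All 46 were among the 53801 genes of the count table, and all 46 were among the 14336 genes with enough counts to be tested. RNA came from AtT20/D16v-F2 cells, a mouse line of pituitary corticotrophs that makes and secretes large amounts of pro-opiomelanocortin. One stable line expressed an shRNA against *Creb3l1* from a lentivirus, and the control line expressed a non-targeting shRNA in the same way, with 5 libraries from each. The groups differ in the shRNA and also in being 2 separately transduced lines, so the effect of the knockdown and a difference between the lines cannot be told apart.

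A protein bound for secretion is recognised by the signal recognition particle while it is still being made, docks at the SRP receptor, and passes through the Sec61 channel, where signal peptidase removes its signal sequence. Oligosaccharyltransferase transfers a preassembled sugar from the lipid dolichol to asparagine residues of the entering chain, after which glucosidases and mannosidases trim the sugar and N-acetylglucosaminyltransferases begin its branches. Creb3l1 is a transcription factor held in the ER membrane, whose N-terminal part is released by proteolysis and enters the nucleus.

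The libraries held between 17420698 and 22205107 counts on genes. *Creb3l1* itself fell from 3689 ± 148 to 1090 ± 59.2 normalised counts (SD, n = 5 each), with no overlap. Of 6 corticotroph markers, *Pomc*, *Tbx19*, *Neurod1* and *Pcsk1* were above 1000 normalised counts in both lines (log2 fold changes -0.51, -0.27, 0.62 and -0.46), *Crhr1* was near 29 and *Avpr1b* was at 0. *Gh*, *Prl*, *Tshb*, *Lhb*, *Fshb* and *Pou1f1* of other pituitary cells averaged under 1 count, as did *Dcn*, *Lum*, *Cdh5*, *Ptprc* and *Cd3e*, whereas *Col1a1* averaged 717 and 935 counts, *Col1a2* 211 and 282 and *Cd68* 39.7 and 30.2, each with overlapping groups. *Pecam1* averaged 13.8 counts in control and 6.41 in knockdown libraries without overlap and was called lower (adjusted p = 0.0063 in edgeR). The part of these markers in the results was not tested. Mitochondrial genes took 4.68% to 5.52% of control and 3.43% to 4.66% of knockdown counts, and the part of that difference in the results was not tested. Non-targeting replicate 3 stood apart, since the non-coding gene *Gm42418* took 4.13% of its counts against 0.106% to 0.191% in the other 9 libraries. Without that library 16 of the 17 members described below as changed kept their call, the exception being *Sec61a2*.

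*Creb3l1* knockdown AtT20 cells differed from control cells in 17 of the 46 genes (37.0%) when the threshold was an adjusted p of 0.01 by edgeR, with the adjustment of Benjamini and Hochberg made over every gene tested. Over the whole transcriptome 40.7% of genes passed the same test, so the share among these genes was close to that background. Of the 17, 13 were higher in the knockdown cells (28.3%, against 20.6% of all genes) and 4 were lower (8.70%, against 20.1% of all genes). For 17 of the 46 genes every library of one line lay above every library of the other (37.0%, against 36.0% of all genes). When each library was also given offsets for the GC content and transcript length of its genes, 24 members passed, 20 higher (43.5%, against 22.6% of all genes) and 4 lower (8.70%, against 20.3%), where 42.9% of all genes passed in that fit. No member reached 1.5-fold, a size that 7.73% of all genes reached together with the adjusted p. The absolute log2 fold change had a median of 0.08 among the members against 0.15 among all genes, and the largest difference was the 1.32-fold increase of *Alg2*. With their signs kept, the median log2 fold change was 0.06 for the members and close to 0 for all genes.

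The 13 genes that rose were *Srpr* at the receptor, *Sec61a1*, *Sec61a2*, *Sec63* and *Ssr1* at the translocon, *Spcs2* and *Spcs3* of signal peptidase, *Stt3a*, *Stt3b*, *Rpn1* and *Tusc3* of oligosaccharyltransferase, *Alg2* of oligosaccharide assembly and *Mgat2* of branching. No gene of the particle itself and no trimming gene was among them. The 4 that fell were *Srp72* of the signal recognition particle and *Alg1*, *Alg6* and *Alg8* of oligosaccharide assembly. The calls of *Sec61a2*, *Spcs3*, *Stt3a*, *Srp72*, *Alg1* and *Alg6* were lost in some alternative fits, as given below. Together the 46 genes took 0.626% to 0.675% of all counts with the non-targeting shRNA and 0.684% to 0.708% with the *Creb3l1* shRNA, with no overlap. The library of the lowest control share is non-targeting replicate 3, and without it the control range begins at 0.661%.

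**Figure D1:**
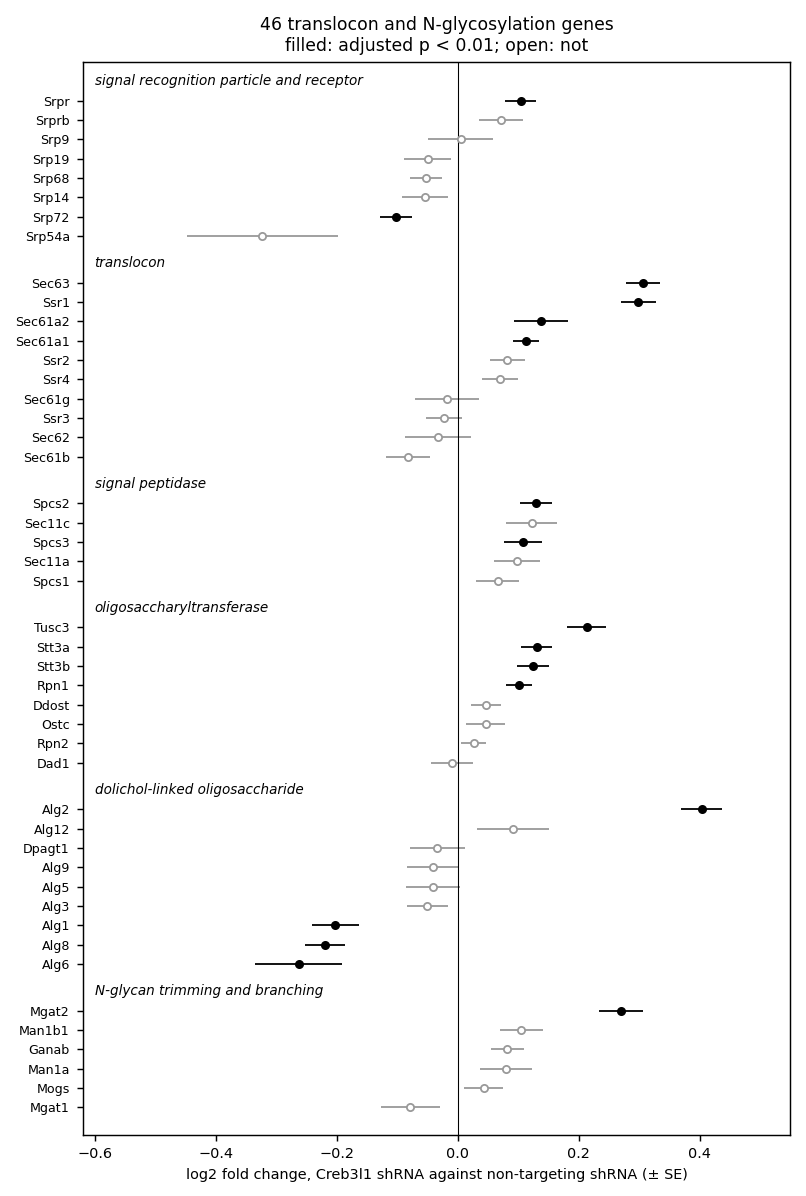
Log2 fold change of each of the 46 genes, *Creb3l1* shRNA against non-targeting shRNA, on the x axis with bars for the standard error (n = 5 libraries per line), grouped by step of the pathway. Filled points passed an adjusted p of 0.01: 13 lie to the right of 0, led by *Alg2*, and 4 lie to the left.

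The promoters of 36 of the 46 genes were in the RefSeq table of mouse promoters (GRCm38.p6), which gives 250 bases before and 50 after each start site. *Alg2*, *Dpagt1*, *Ostc*, *Sec11c*, *Sec61a1*, *Spcs3*, *Srp19*, *Srp68*, *Ssr2* and *Tusc3* were not matched. The word GACGTG, the core of a G-box to which CREB3 family proteins are known to bind, was sought on both strands (CACGTC on the other). It lies in promoters of 6 of the 36 genes (16.7%), against 10.8% of the tested genes with a promoter in the table. Counted per promoter, 6.38% of all in the table hold it, and a gene can have several promoters there. Among those 6 genes, *Sec63*, *Ssr1* and *Srpr* rose, none fell, and *Dad1*, *Mogs* and *Srp14* did not pass the test. Of all genes tested, 20.6% were called higher and 20.1% lower. Whether the word goes with a rise was not tested. The sequences of the 3 that rose are shown with the word in capitals, followed by *Dad1*, which carries the word and whose log2 fold change was -0.01. Each is given 5′ to 3′ on the strand of its gene.
Sec63, chr10:42761246-42761545, plus strand: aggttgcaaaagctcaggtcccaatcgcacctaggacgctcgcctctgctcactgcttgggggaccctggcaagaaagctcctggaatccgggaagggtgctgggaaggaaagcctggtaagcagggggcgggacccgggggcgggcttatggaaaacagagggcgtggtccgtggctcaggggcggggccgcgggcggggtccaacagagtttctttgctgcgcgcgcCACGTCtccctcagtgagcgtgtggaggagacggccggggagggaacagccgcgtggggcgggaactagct
Ssr1, chr13:37994159-37994458, minus strand: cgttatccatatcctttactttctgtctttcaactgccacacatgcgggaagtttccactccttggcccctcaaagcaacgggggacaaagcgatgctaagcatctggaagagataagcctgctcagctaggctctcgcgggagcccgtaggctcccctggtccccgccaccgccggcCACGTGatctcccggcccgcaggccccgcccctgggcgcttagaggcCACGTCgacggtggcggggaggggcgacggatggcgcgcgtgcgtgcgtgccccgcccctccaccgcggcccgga
Srpr, chr9:35210953-35211252, plus strand: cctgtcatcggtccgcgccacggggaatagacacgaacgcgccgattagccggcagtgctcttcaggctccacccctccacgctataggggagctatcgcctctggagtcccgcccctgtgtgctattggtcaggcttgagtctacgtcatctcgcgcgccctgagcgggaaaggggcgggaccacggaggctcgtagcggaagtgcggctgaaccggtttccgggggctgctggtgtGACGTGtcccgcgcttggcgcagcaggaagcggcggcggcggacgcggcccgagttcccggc
Dad1, chr14:54253880-54254179, minus strand: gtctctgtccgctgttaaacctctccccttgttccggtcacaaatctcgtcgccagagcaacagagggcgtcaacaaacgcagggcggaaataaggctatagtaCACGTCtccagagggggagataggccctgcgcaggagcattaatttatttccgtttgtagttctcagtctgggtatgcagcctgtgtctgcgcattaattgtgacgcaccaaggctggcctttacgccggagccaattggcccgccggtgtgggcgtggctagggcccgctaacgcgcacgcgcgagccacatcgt

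Counted from the start site, the word begins at base -21 in *Sec63*, -25 in *Ssr1*, -12 in *Srpr* and -146 in *Dad1*. It begins at base -18 in *Srp14* and -33 in *Mogs*, whose log2 fold changes of -0.05 and 0.04 did not pass the test. The *Ssr1* promoter also holds CACGTG at base -72, likewise in capitals, a palindrome that *Alg1* (base 4) and *Sec62* (base -32) carry too. Of these carriers *Ssr1* rose, *Alg1* fell and *Sec62* did not pass the test. The palindrome lies in promoters of 8.33% of the members and 11.6% of the tested genes with a promoter in the table, and in 7.15% of all promoters. The 2 words differ in their first letter and were counted separately. The ER stress response element (ERSE), on either strand, was found in 1 member, *Alg12* (2.78%), against 0.173% of tested genes and 0.119% of all promoters, and *Alg12* did not pass the test. The related element ERSE-II was in no promoter of the 36 genes and in promoters of 0.0867% of the tested genes with a promoter in the table. A match describes these letters only.

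At the targeting step 1 of 8 genes was called higher and 1 lower (12.5% each, against 20.6% and 20.1% of all genes). *Srpr*, the receptor subunit that binds the signal recognition particle, counted 4776, 4746, 4775, 4730 and 4897 in non-targeting replicates 1 to 5 and 5176, 5296, 5052, 5114 and 5080 in knockdown replicates 1 to 5. All values here are TMM-normalised counts, listed in that order. *Srpr* rose by 0.10 on the log2 scale (SE 0.025, adjusted p = 0.000676 in edgeR), and every knockdown library lay above every control library. Its exons share 39 bases with *Tirap* and 50 with *Fam118b* on the opposite strand, and the strand setting of the counting was not given in the sources used here. *Srprb*, which anchors the receptor in the membrane, averaged 1427 ± 87.7 and 1502 ± 35.7 counts (SD, n = 5 each), and its groups overlapped.

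*Srp72*, which binds the particle's RNA as a partner of Srp68, counted 5251, 5213, 5459, 5335 and 5123 in control and 5048, 4957, 4957, 4754 and 4856 in knockdown libraries. It fell by 0.10 on the log2 scale (SE 0.026, adjusted p = 0.00117 in edgeR) without overlap, and with library totals as the only scaling its adjusted p in edgeR was 0.0151. The other particle proteins did not pass the test. *Srp68* averaged 3832 ± 78.7 and 3696 ± 68.2 counts, *Srp14* and *Srp9*, which form the Alu domain that slows translation, had log2 fold changes of -0.05 and 0.01, and *Srp19*, an assembly protein, had -0.05. *Srp54a*, which carries the signal-sequence binding site, had the lowest counts of the 46 genes, at 84.5 ± 5.75 and 67.3 ± 9.02. Its log2 fold change was -0.32 (SE 0.12, adjusted p = 0.0286 in edgeR, not called), and -0.38 with the GC and length offsets, where it was called (adjusted p = 0.00813 in edgeR). The groups overlapped by the knockdown library with 79.0 counts. It has near-identical copies, of which *Srp54b* had no count in any library and *Srp54c* had 253 to 336 raw counts, so the division of reads among the copies is uncertain.

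The translocon gave 4 genes higher and none lower of its 10, a share called of 40.0% against 40.7% of all genes. By direction, 40.0% were higher, where 20.6% of all genes were called higher and 20.1% lower. With the GC and length offsets 6 were higher (60.0%, against 22.6% of all genes in that fit). *Sec63*, which recruits the chaperone BiP to the channel, counted 2916, 2998, 2929, 2946 and 2891 in control libraries and 3813, 3425, 3556, 3749 and 3606 in knockdown libraries. *Ssr1*, the alpha subunit of the translocon-associated protein complex (TRAP), counted 2976, 2979, 3059, 3041 and 2945 in control and 3618, 3597, 3499, 3801 and 3927 in knockdown libraries. The 2 genes had similar counts in each line, and their lowest knockdown library lay well above the highest control library. *Sec63* rose by 0.31 (SE 0.029, adjusted p = 6.38e-12 in edgeR) and *Ssr1* by 0.30 (SE 0.029, adjusted p = 2.04e-11), both on the log2 scale. With the GC and length offsets both values were smaller but still called, at 0.22 for *Sec63* and 0.18 for *Ssr1*, with adjusted p of 6.09e-11 and 7.54e-06 in edgeR.

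Of the channel itself, *Sec61a1*, which encodes the pore-forming alpha subunit, counted 11010, 11083, 11058, 11009 and 10963 in control and 11815, 12358, 11685, 11918 and 11835 in knockdown libraries. It rose by 0.11 on the log2 scale (SE 0.021, adjusted p = 2.16e-05 in edgeR) with no overlap. *Sec61a2*, the second alpha subunit gene, counted 703, 709, 710, 699 and 693 in control and 819, 826, 730, 734 and 756 in knockdown libraries. Knockdown replicates 1 and 2 were the highest and the control libraries lay close together. *Sec61a2* rose by 0.14 (SE 0.044, adjusted p = 0.00818 in edgeR), but the call was lost in DESeq2 (adjusted p = 0.0192) and on leaving out any of the control libraries or knockdown replicate 1 or 2, with adjusted p from 0.012 to 0.0356 in edgeR. Of its exonic bases, 19.9% are shared with *Nudt5* on the opposite strand, whose log2 fold change was -0.10. The small subunits of the channel did not pass: *Sec61b* averaged 1555 ± 77.8 and 1469 ± 56.2 counts with a log2 fold change of -0.08 (95% interval -0.15 to -0.01, not adjusted), and *Sec61g* averaged 554 ± 28.9 and 548 ± 36.6. Both had a positive log2 fold change with the GC and length offsets, at 0.06 for *Sec61b* and 0.02 for *Sec61g*.

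The other TRAP subunits, which assist entry of some signal sequences, gave log2 fold changes of 0.08 for *Ssr2*, -0.02 for *Ssr3* and 0.07 for *Ssr4*, none past the threshold. *Ssr2* had an adjusted p of 0.0175 in edgeR, and its value moved to 0.21 (adjusted p = 1.84e-10) with the GC and length offsets. *Ssr4* moved to 0.12 and was called in that fit too (adjusted p = 9.56e-05 in edgeR). *Sec62*, which works with Sec63 in the import of small precursors, averaged 1955 ± 47.7 counts in control and 1909 ± 180 in knockdown libraries. Its lowest value, 1630 in knockdown replicate 2, lay below all control libraries and its highest, 2078 in knockdown replicate 5, above them.

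**Figure D2:**
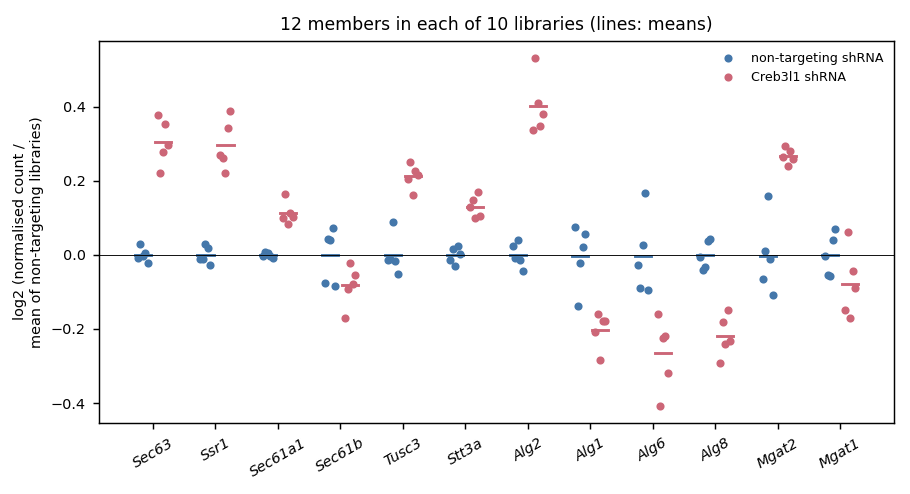
Each of 12 members in the 10 libraries, as the log2 of its TMM-normalised count over the mean of the 5 non-targeting libraries on the y axis, with a line at the mean of the plotted points of each line. Knockdown points of *Sec63*, *Ssr1*, *Sec61a1*, *Tusc3*, *Stt3a*, *Alg2* and *Mgat2* lie above and those of *Alg1*, *Alg6* and *Alg8* below all control points, whereas *Sec61b* and *Mgat1* overlap.

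All 5 signal peptidase genes had positive log2 fold changes, between 0.07 and 0.13, and 2 passed (40.0%, against 40.7% of all genes). *Spcs2*, a non-catalytic subunit, counted 3052, 3058, 2990, 3054 and 3070 in control and 3286, 3392, 3337, 3361 and 3283 in knockdown libraries. It rose by 0.13 on the log2 scale (SE 0.026, adjusted p = 6.77e-05 in edgeR) without overlap. *Spcs3*, a subunit needed for the enzyme's activity, counted 2693, 2736, 2768, 2583 and 2589 in control and 2898, 2731, 2781, 2928 and 3054 in knockdown libraries. It was the only one of the 17 changed genes whose groups overlapped, with knockdown replicate 2 under 2 of the control libraries. *Spcs3* rose by 0.11 (SE 0.031, adjusted p = 0.0039 in edgeR), and the call was lost with the GC and length offsets, with the ordinary dispersion and without non-targeting replicate 4 or 5 or knockdown replicate 4 or 5, at adjusted p from 0.0102 to 0.0219 in edgeR. The catalytic subunits had about as large a difference with more spread: *Sec11a* averaged 1853 ± 66.8 and 1984 ± 136 counts (log2 fold change 0.10, adjusted p = 0.0326 in edgeR). *Sec11c* averaged 921 ± 46.1 and 1001 ± 50.2 counts (0.12, adjusted p = 0.0143 in edgeR). *Spcs1* averaged 1559 ± 83.4 and 1634 ± 49.2 counts (0.07), and with the GC and length offsets it was called at 0.12 (adjusted p = 0.0076 in edgeR).

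Oligosaccharyltransferase gave 4 genes higher of 8 and none lower (50% called, against 40.7% of all genes). By direction, 50% were higher, where 20.6% of all genes were called higher and 20.1% lower. With the GC and length offsets 6 were higher (75.0%, against 22.6% of all genes in that fit). Its catalytic subunits are the products of *Stt3a*, in the complex that works at the translocon, and *Stt3b*, in the complex that acts on sites passed over by the first. *Stt3a* counted 4938, 5048, 4889, 5076 and 4996 in control and 5460, 5529, 5350, 5607 and 5363 in knockdown libraries. *Stt3b* counted 5038, 5292, 4950, 4971 and 5128 in control and 5496, 5780, 5354, 5568 and 5468 in knockdown libraries. Neither gene overlapped between the lines. *Stt3a* rose by 0.13 (SE 0.025, adjusted p = 3.78e-05 in edgeR) and *Stt3b* by 0.12 (SE 0.027, adjusted p = 0.000154) on the log2 scale. With the GC and length offsets *Stt3a* was no longer called, at 0.03 (adjusted p = 0.522 in edgeR), while *Stt3b* was at 0.11 (adjusted p = 7.64e-05).

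*Tusc3*, an oxidoreductase subunit found with Stt3b, had the largest increase among the 8 members of the complex. It counted 1654, 1655, 1774, 1649 and 1610 in control and 1921, 1986, 1865, 1951 and 1937 in knockdown libraries. Non-targeting replicate 3 was the highest control and still below every knockdown library, and *Tusc3* rose by 0.21 (SE 0.032, adjusted p = 3.95e-07 in edgeR). *Rpn1*, encoding ribophorin I, counted 11050, 11003, 10935, 11302 and 10858 in control and 11598, 11994, 11935, 12019 and 11632 in knockdown libraries. It rose by 0.10 (SE 0.021, adjusted p = 0.000107 in edgeR), with no overlap. The other structural subunits did not pass: the log2 fold change was 0.03 for *Rpn2*, 0.05 for *Ddost*, 0.05 for *Ostc* and -0.01 for *Dad1*. *Rpn2*, at 13512 ± 226 and 13761 ± 247 counts, had the highest count of the 46 genes. With the GC and length offsets *Rpn2* (0.08), *Ddost* (0.13) and *Ostc* (0.10) were called higher, with adjusted p of 9.52e-05, 3.71e-07 and 0.00364 in edgeR.

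Per length of exon, *Ddost*, *Rpn2* and *Rpn1* of this complex were the 3 highest levels of the 46 genes in control cells, at 195 ± 3.38, 150 ± 2.51 and 121 ± 1.85 normalised counts per kilobase in a library of 1000000 counts (SD, n = 5), and their ranges were apart. By the length of the longest transcript instead, *Rpn2* came first at 242 ± 4.04 and *Sec61a1*, after *Ddost*, at 171 ± 0.729. *Srp54a* and *Alg6* had the lowest levels per length by either measure.

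Assembly of the dolichol-linked oligosaccharide had 1 gene higher and 3 lower of 9 (44.4% called, against 40.7% of all genes). With the GC and length offsets 1 was higher and 2 were lower (33.3% called, against 42.9% of all genes in that fit). *Alg2* encodes a mannosyltransferase that adds some of the mannoses after the first on the outer face of the ER, and it rose. *Alg2* counted 2039, 1994, 2065, 1988 and 1947 in control libraries and 2535, 2899, 2668, 2554 and 2614 in knockdown libraries. The lowest knockdown value was above the highest control value, and *Alg2* rose by 0.40 on the log2 scale (SE 0.033, adjusted p = 1.91e-13 in edgeR), the largest difference among the 46 genes. *Alg1*, which adds the first mannose just before Alg2 acts, went the other way. It counted 1403, 1210, 1312, 1352 and 1387 in control and 1153, 1193, 1095, 1178 and 1177 in knockdown libraries, where the lowest control was just above the highest knockdown library. *Alg1* fell by 0.20 (SE 0.039, adjusted p = 2.58e-05 in edgeR). Its value moved to -0.10 (adjusted p = 0.0178 in edgeR) with the GC and length offsets, and 17.6% of its exonic bases are shared with *Eef2kmt* on the opposite strand, which itself had a log2 fold change of -0.43.

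*Alg6* and *Alg8*, the glucosyltransferase genes of the inner face among the members, were both lower. *Alg10b*, a further gene of this kind outside the members, was at 0.08 on the log2 scale and was not called (adjusted p = 0.0908 in edgeR). With the GC and length offsets it was at -0.03, also not called. *Alg10b* was named after its values were seen. *Alg6*, which adds the first glucose, counted 305, 292, 317, 349 and 291 in control and 278, 234, 266, 267 and 249 in knockdown libraries. *Alg8*, which adds the second, counted 1670, 1629, 1639, 1720 and 1726 in control and 1369, 1478, 1420, 1512 and 1428 in knockdown libraries. No control library was as low as any knockdown library for either gene. *Alg6* fell by 0.26 (SE 0.072, adjusted p = 0.00224 in edgeR) and *Alg8* by 0.22 (SE 0.034, adjusted p = 6.05e-07) on the log2 scale. Without non-targeting replicate 4, the highest control, *Alg6* was at -0.215 with an adjusted p of 0.0162 in edgeR. The remaining 5 genes, *Dpagt1*, which starts the chain, *Alg5*, which makes the glucose donor, and the mannosyltransferase genes *Alg3*, *Alg9* and *Alg12*, had log2 fold changes between -0.05 and 0.09 and did not pass.

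*Alg2* and *Sec61b* are neighbours on chromosome 4 of GRCm38 that are read in opposite directions away from each other, with 324 bases between them, an arrangement looked up after their values were seen. *Alg2* ends its reverse-strand span at base 47474333 and *Sec61b* starts at base 47474658. In this head-to-head pair *Alg2* rose by 0.40, whereas *Sec61b* was at -0.08 and did not pass the test. The *Sec61b* promoter window of the RefSeq table covers most of the interval between the genes and is shown for that reason, with no capitals because none of the 4 words searched is in it.
Sec61b, chr4:47474411-47474710, plus strand: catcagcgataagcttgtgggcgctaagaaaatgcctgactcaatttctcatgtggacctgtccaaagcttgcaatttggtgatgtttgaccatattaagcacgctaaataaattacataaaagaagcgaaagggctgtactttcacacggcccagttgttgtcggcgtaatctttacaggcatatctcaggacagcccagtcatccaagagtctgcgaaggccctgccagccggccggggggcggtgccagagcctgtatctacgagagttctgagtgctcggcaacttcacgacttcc

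Of the trimming and branching genes, 1 of 6 passed (16.7%, against 40.7% of all genes), and 4 passed with the GC and length offsets (66.7%, against 42.9%). *Mgat2*, which starts the second branch and thereby allows complex N-glycans, counted 1410, 1488, 1647, 1465 and 1370 in control and 1773, 1811, 1742, 1793 and 1766 in knockdown libraries. The knockdown libraries were closely grouped and all above the highest control, replicate 3. *Mgat2* rose by 0.27 on the log2 scale (SE 0.037, adjusted p = 5.73e-08 in edgeR). *Mgat1*, which starts the first branch, averaged 628 ± 24.5 and 596 ± 39.0 counts, with overlap and a log2 fold change of -0.08 (adjusted p = 0.186 in edgeR).

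The glucosidase genes *Mogs*, for the enzyme that removes the outermost glucose, and *Ganab*, for the catalytic subunit that removes the others, had log2 fold changes of 0.04 and 0.08. *Ganab* averaged 5943 ± 160 and 6290 ± 213 counts with an adjusted p of 0.0107 in edgeR, just outside the threshold. *Man1b1*, an ER mannosidase linked to disposal of misfolded glycoproteins, counted 1342, 1342, 1322, 1257 and 1304 in control and 1374, 1509, 1455, 1388 and 1342 in knockdown libraries. Its groups met at 1342 counts without crossing, and its log2 fold change of 0.10 had an adjusted p of 0.0132 in edgeR. *Man1a*, a Golgi mannosidase gene, averaged 922 ± 13.9 and 973 ± 71.4 counts and its groups overlapped. With the GC and length offsets *Mogs*, *Ganab* and *Man1b1* were called higher, at 0.11, 0.09 and 0.14 on the log2 scale.

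**Figure D3:**
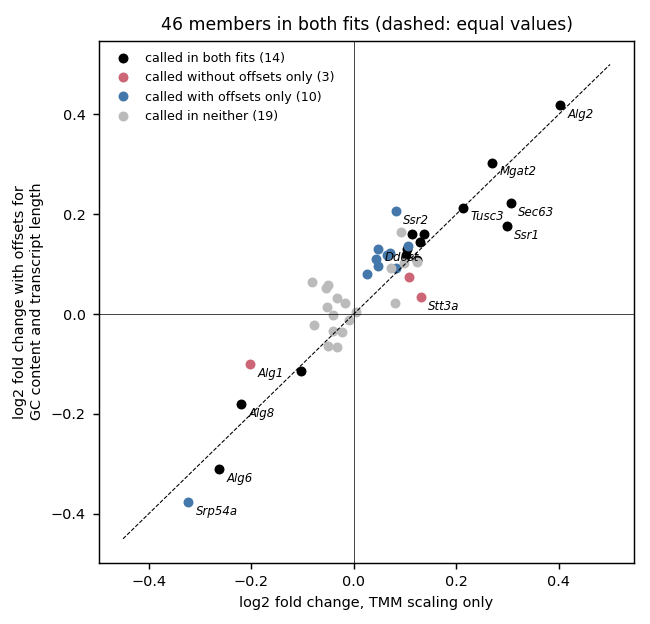
Log2 fold change of the 46 genes with TMM scaling only on the x axis and with added offsets for GC content and transcript length on the y axis, coloured by whether each fit called the gene. Of the members, 14 were called in both fits, 3 (*Spcs3*, *Stt3a*, *Alg1*) only without and 10 only with the offsets, and *Sec61b*, which neither fit called, lies farthest from the dashed line of equal values, at -0.08 without and 0.06 with the offsets.

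Genes that carry out the same step were also compared within each library, as the log2 ratio of their counts, which needs no scaling between libraries. The 5 pairs were *Sec61a1*/*Sec61a2*, *Sec11a*/*Sec11c*, *Stt3a*/*Stt3b*, *Tusc3* with its alternative subunit gene *Magt1*, and *Man1a*/*Man1a2*. In control cells *Sec61a1* exceeded *Sec61a2* by 3.97 ± 0.01 on the log2 scale of counts (SD, n = 5) and in knockdown cells by 3.95 ± 0.07. *Stt3a* and *Stt3b* counts were nearly equal in both lines, with mean log2 ratios of -0.02 in each. The largest differences between the lines were -0.11 for *Tusc3*/*Magt1* and 0.10 for *Man1a*/*Man1a2*, with p = 0.127 and p = 0.0794 in a two-sided exact permutation test, and 0.317 for both after adjustment over the 5 pairs. None of the 5 pairs passed 0.05, where 0.0079 is the smallest p the design allows, and the ranges of the 2 lines overlapped for each pair.

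Beyond the 46 genes, a list of 71 further genes of the same pathways was counted. Of these 69 were tested and 33 passed (47.8%, against 40.7% of all genes). Of the 33, 11 were higher (15.9%, against 20.6% of all genes) and 22 lower (31.9%, against 20.1%). Of the 69, 4 were lower by at least 1.5-fold, where 7.73% of all genes passed at that size in either direction. With the GC and length offsets 37 passed (53.6%, against 42.9% of all genes). Of these, 17 were higher (24.6%, against 22.6%) and 20 lower (29.0%, against 20.3%). All 4 further oligosaccharyltransferase genes passed. *Ost4*, a very small subunit that holds the Stt3 proteins in the complex, counted 1755, 1840, 1841, 1932 and 1871 in control and 1154, 1179, 1183, 1164 and 1181 in knockdown libraries. It fell by 0.66 on the log2 scale (SE 0.033, adjusted p = 3.95e-20 in edgeR), far below any control library. *Krtcap2* and *Tmem258*, also small subunits, fell by 0.14 and 0.15, but neither was called with the GC and length offsets, at -0.02 and -0.05 (adjusted p = 0.44 and 0.256 in edgeR). *Magt1*, the oxidoreductase alternative to Tusc3, rose by 0.32 (1028 ± 38.5 against 1285 ± 89.4 counts, adjusted p = 1.97e-08 in edgeR). *Krtcap2* and *Tmem258* were named after their values were seen, to complete the enzyme. Within the whole enzyme *Stt3b*, *Rpn1*, *Tusc3* and *Magt1* rose and *Ost4* fell in both fits, whereas the calls of *Stt3a*, *Krtcap2* and *Tmem258* were lost and those of *Rpn2*, *Ddost* and *Ostc* were gained with the offsets.

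Among 28 further tested genes of targeting and insertion, 5 rose and 7 fell (17.9% and 25%, against 20.6% and 20.1% of all genes). With the GC and length offsets 8 were called higher and 6 lower (28.6% and 21.4%, against 22.6% and 20.3%). The translocating-chain associated genes differed in direction: *Tram1* averaged 2933 ± 55.5 counts in control and 3608 ± 180 in knockdown libraries, a rise of 0.30 (SE 0.030, adjusted p = 4.22e-11 in edgeR). *Tram2* counted 379, 407, 358, 339 and 362 in control and 203, 207, 196, 202 and 185 in knockdown libraries. It fell by 0.89 (SE 0.071, adjusted p = 5.85e-14 in edgeR), with the knockdown libraries close together and far below the controls. *Tram1* was named after its values were seen, for comparison with *Tram2*.

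Of 24 further genes of dolichol and sugar donor supply, 7 passed and all 7 were lower (29.2%, against 20.1% of all genes). With the GC and length offsets 8 were lower and 3 higher (33.3% and 12.5%, against 20.3% and 22.6% of all genes). The 3 were *Mpdu1* (0.17), *Dolk* (0.18) and *Dolpp1* (0.24), named after their values were seen. *Dpm3*, which anchors the synthase of dolichol-phosphate mannose in the membrane, averaged 753 ± 12.5 and 516 ± 36.3 counts and fell by 0.55 (SE 0.047, adjusted p = 5.63e-13 in edgeR). *Pmm1*, a phosphomannomutase gene, averaged 751 ± 36.3 and 560 ± 44.7 counts and fell by 0.42 (SE 0.050, adjusted p = 2.04e-09). Neither gene overlapped between the lines. *Dpm3* lies 9451 bases downstream of *Krtcap2* on chromosome 3, on the same strand.

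Later N-glycan processing held the largest differences: 10 of the 13 further trimming and branching genes that could be tested passed (76.9%, against 40.7% of all genes). In each direction 5 were called with or without the offsets, but not the same genes. The calls of *Prkcsh* and *Man2a1* were lost with the offsets, at -0.03 and 0.04. Those of *Man1a2* (-0.14) and *Mgat4b* (0.17) were gained. *Prkcsh*, *Man2a1* and *Mgat4b* were named after their values were seen. *Mgat3*, whose product adds the bisecting N-acetylglucosamine, counted 428, 426, 430, 418 and 418 in control and 227, 194, 189, 204 and 184 in knockdown libraries. *Mgat5*, which adds a further branch, counted 696, 671, 679, 669 and 750 in control and 954, 1051, 918, 985 and 975 in knockdown libraries. The 2 genes moved in opposite directions with wide gaps between the lines, *Mgat3* falling by 1.08 (SE 0.069, adjusted p = 5.62e-17 in edgeR) and *Mgat5* rising by 0.49 (SE 0.044, adjusted p = 1.3e-12). *Man2a2*, encoding a Golgi mannosidase, rose by 0.33 (1292 ± 47.4 against 1626 ± 57.9 counts, adjusted p = 1.33e-10 in edgeR). *St6gal1*, which caps branches with sialic acid, fell by 0.55 (699 ± 19.0 against 478 ± 29.6 counts, adjusted p = 1.38e-12 in edgeR). *Mgat5b* fell by 2.09 (adjusted p = 2.4e-06 in edgeR) but at low counts, 18.8 ± 4.82 against 4.35 ± 1.10.

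**Figure D4:**
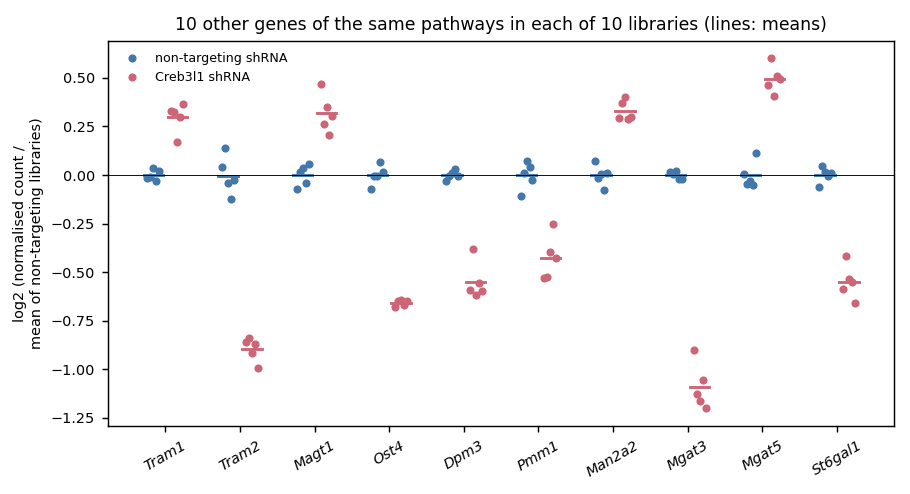
Values of 10 further genes of the same pathways in the 10 libraries, as the log2 of the TMM-normalised count over the mean of the 5 non-targeting libraries on the y axis, with a line at the mean of each line's points. *Tram1*, *Magt1*, *Man2a2* and *Mgat5* lie above and *Tram2*, *Ost4*, *Dpm3*, *Pmm1*, *Mgat3* and *St6gal1* below the control points in every knockdown library.

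Because a small hairpin can also lower other mRNAs through its seed, the 7-base match TCAACAA to the guide's seed, derived from the shRNA target the submitters give, was counted in annotated 3′ UTRs. It was present in 5 of the 46 genes (10.9%), namely *Stt3a*, *Alg5*, *Alg6*, *Man1a* and *Mgat2*, against 9.30% of the tested genes with an annotated 3′ UTR. Of these 5, *Stt3a* and *Mgat2* rose and *Alg6* fell, where 20.6% of all genes were called higher and 20.1% lower. The median log2 fold change was 0.0167 for all tested genes with the site and -0.000219 for those without it. The part of such sites in the difference of *Alg6* was not tested.

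Across the 46 genes, the log2 fold change had a Spearman correlation of 0.30 with the mean count, 0.26 with exon length and -0.15 with GC content. These are descriptions over genes measured in the same 10 libraries, which are not independent of each other. Precision was high for most members, with a median coefficient of variation of 3.17% in control and 3.83% in knockdown libraries, and the smallest difference that passed was 0.10 on the log2 scale. For the 29 genes that did not pass, the farther bound of the 95% interval of the log2 fold change had a median size of 0.13, and it reached 0.57 for *Srp54a*.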

How the data were processed

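AtT20 cells with non-targeting or *Creb3l1* shRNA gave 5 libraries each, which the study calls biological replicates. Per the labels and methods, the authors prepared libraries from messenger RNA, aligned reads to GRCm38 (STAR) and assigned them to genes (featureCounts). The deposited values are whole-number counts of reads per gene, not normalised. Totals per library of 17420698 to 22205107 set the counting error.

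Counts were tested with edgeR 4.0.16 in R 4.3.3 (filterByExpr, TMM, robust glmQLFit, glmQLFTest, no covariate), with Benjamini-Hochberg adjustment over 14336 genes and a threshold of 0.01. Normalised counts are counts scaled to the mean effective library size, and 95% intervals are 1.96 standard errors. Pair ratios used a pseudocount of 0.5 and a two-sided exact permutation test. Symbols, positions and lengths came from GENCODE M21 on GRCm38, and promoters from RefSeq. Members and lists were chosen with earlier results of these data known. All members were named, and of the other pathway genes those called at 1.5-fold or more, then the 3 largest called increases and decreases averaging 100 normalised counts or more, and both genes of each pair.

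Alternatives were DESeq2 1.42.0, RLE size factors, library totals, no filter, at least 10 counts in every library, an adjusted p of 0.05, a 1.5-fold minimum, offsets for GC content and transcript length (splines with 5 degrees of freedom each), the replicate number as a block, and each library left out. An ordinary, non-robust dispersion was added after the data were seen. In counts simulated for this comparison with 14244 genes, 143 of 198 changed genes were recovered (72.2%) and 3 unchanged genes were called. The study's quantitative PCR, blots and reporter assays were not analysed here.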

Additional observations from a re-analysis of the deposited data

Results flagged for a closer look

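In 9 of the groups of 5 libraries (46 genes and 5 pair ratios, in each of 2 lines), 1 library stood far from the other 4 by Dixon's criterion of 0.710, where chance gives about 1 in 20, or 5.1 groups here. All values are TMM-normalised counts. In the receptor and particle, *Srp9* was lowest in non-targeting replicate 2 at 491 against 502 to 506, *Srpr* highest in non-targeting replicate 5 at 4897 against 4730 to 4776, and *Srprb* highest in knockdown replicate 2 at 1564 against 1477 to 1500. Non-targeting replicate 4 was highest for *Sec62*, at 2038 against 1914 to 1941, and for *Spcs1*, at 1704 against 1494 to 1550. Non-targeting replicate 3, the library rich in *Gm42418*, was lowest for *Spcs2* at 2990 against 3052 to 3070 and highest for *Tusc3* at 1774 against 1610 to 1655. *Mogs* was highest in non-targeting replicate 1 at 2406 against 2223 to 2258, and *Man1a* lowest in non-targeting replicate 2 at 898 against 924 to 931. *Srpr*, *Spcs2* and *Tusc3* kept their calls without the library named for them.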

How the results depend on the processing

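Between 16 and 21 of the 46 members were called under DESeq2, RLE size factors, library totals, either count filter, ordinary dispersion and the replicate block. The share of all genes called in these fits ran from 22.7% (no filter) and 31.8% (DESeq2) to 42.6% (at least 10 counts in every library). With the replicate block, 21 were called, 17 of them higher, the gains being *Ssr2*, *Sec11a*, *Ganab* and *Man1b1*. Same-numbered libraries did not deviate together (correlations -0.06 to 0.04), so the numbers do not pair them, and the block changed no call among the 17. The within-number permutation of the pair ratios cannot give a p under 0.0625. Leaving out each library called 15 to 19 members and 37.5% to 41.5% of all genes. The GC and length offsets raised the members called higher to 20 (43.5%, against 22.6% of all genes) and the median log2 fold change of the members to 0.0864. A 1.5-fold minimum left 1108 genes, 4 other pathway genes and 0 members, 0 higher and 0 lower. The offsets called 37 other pathway genes (53.6%, against 42.9% of all genes), 17 of them higher (24.6%, against 22.6%). At an adjusted p of 0.05, 24 members passed. More of all genes passed at this threshold too, and the share among the members was close to that background.

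Sign changes concerned uncalled genes and ratios. With the offsets, *Srp14* was at 0.0524, *Srp68* 0.0149, *Sec61b* 0.065, *Sec61g* 0.0229, *Alg3* 0.0585 and *Dpagt1* 0.0316, and with library totals *Dad1* was at 0.0022. Leaving out each library gave -0.0182 to 0.0376 for *Srp9*, -0.0367 to 0.0241 for *Sec61g*, -0.0622 to 0.0204 for *Sec62*, -0.0363 to 0.00199 for *Ssr3* and -0.0346 to 0.0138 for *Dad1*. The same gave -0.0405 to 0.00178 for the *Sec61a1*/*Sec61a2* ratio, -0.0464 to 0.0115 for *Sec11a*/*Sec11c* and -0.00497 to 0.0196 for *Stt3a*/*Stt3b*. The cause was not tested.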
